A study of Mus musculus with 4 samples.

Results

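Subplate neurons were looked for in single-cell RNA counts of the embryonic mouse cortex by 4 marker genes, and the members were chosen by their measured counts of these and a few further genes. A barcode was taken when at least 500 genes were detected in it, at least 2 of Nr4a2, Nxph4, Cplx3 and Ctgf had 1 or more unique molecular identifiers (UMIs, counted RNA molecules), and Neurod6 or Tbr1, which mark excitatory cortical neurons, had 1 or more. Barcodes with any UMI of Eomes (intermediate progenitors), Dlx1 or Dlx2 (interneurons) or Col1a1 (fibroblasts) were left out. The rule took 247 of 19237 barcodes, which are called subplate-marker barcodes here, because their other genes bore out the label only in part. There were 61 and 60 in the COP1 KO libraries and 75 and 51 in the HET libraries.

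The subplate is a layer of early-born excitatory neurons below the cortical plate, next to layer 6. Its neurons send out the first cortical axons, receive thalamic axons before these enter the cortex, form transient circuits, and are largely lost after birth. Nr4a2 encodes an orphan nuclear receptor, Nxph4 a secreted neurexin ligand, Cplx3 a complexin that acts in synaptic vesicle release, and Ctgf a matricellular growth factor. COP1, the gene listed here as Rfwd2, recognises the substrates of a ubiquitin ligase, among them ETV1, ETV4 and ETV5 of the ETS family and c-JUN.

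The cells came from papain-dissociated cortex of C57BL/6 embryos at E16.5, as 2 droplet libraries labelled COP1 KO and 2 labelled HET, read at the 3′ ends of transcripts. Whether a library held 1 embryo or several is not given here, so p-values measure the spread between these libraries, which may be technical. The COP1 KO samples are titled CKO, and the labels say neither what HET stands for nor which promoter, if any, restricts the deletion, so the cells in which COP1 was removed are not given here. The question set by the design is which genes of the dissociated cortex differ between COP1 KO and HET. The libraries held 27567576 to 28643863 counts each, and any pair of them shared 22 to 40 barcode sequences. Summed over the subplate-marker barcodes, the counts came to 465000 and 439084 in COP1 KO and to 657945 and 450790 in HET. The median barcode held 6525 and 6487.5 UMIs in COP1 KO and 7550 and 6989 in HET. Levels below are CPM, counts scaled to a fixed total of such a sum, and a barcode is never a replicate.

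Most subplate-marker barcodes were taken by a single pair of genes. Nr4a2 with Nxph4, and no other marker, was found in 225 of the 247 (91.1%), and Nr4a2 with Ctgf in 12. Cplx3 was detected in 7 and Ctgf in 17, while Nr4a2 was detected in 245 and Nxph4 in 233. Just inside the threshold lay 241 barcodes with 2 markers, against 6 with 3 or 4. Just outside lay 2725 excitatory barcodes with 1 marker, of which 2200 had Nr4a2 and 504 had Nxph4.

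Nr4a2 and Nxph4 met in 1 barcode more often than their separate shares give at full depth, but not in every library at equal depth. Of the 9966 excitatory barcodes, 24.5% held an Nr4a2 UMI and 7.40% an Nxph4 UMI. In the COP1 KO libraries, 58 and 56 excitatory barcodes held both, where the product of the single-gene shares gives 48.0 and 40.5. In the HET libraries, 69 and 48 held both, where that product gives 51.1 and 40.8. After every barcode was thinned to 2000 UMIs, 11 and 11 COP1 KO barcodes held both, against products of 11.7 and 8.26, and 18 and 3 HET barcodes did, against 12.5 and 8.16. At equal depth, therefore, observed and product counts lay on either side of each other. In 3745 interneuron-type barcodes, which should lack the markers, Nr4a2 was found in 5.45% and Nxph4 in 0.961%, at a lower median depth of 2975 to 3694 UMIs.

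**Figure D1:**
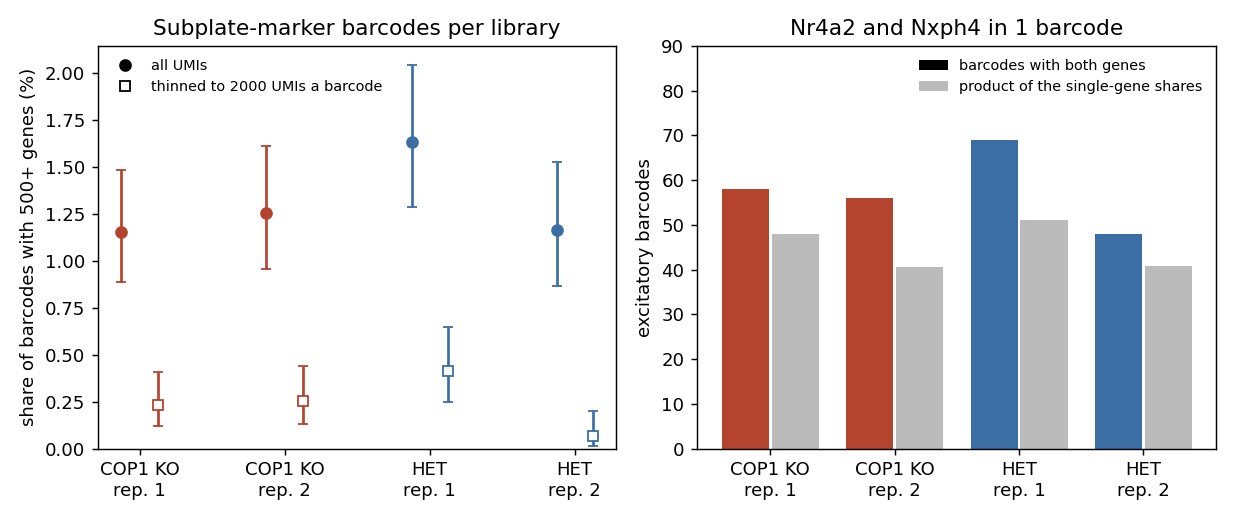
Left, the share of barcodes with at least 500 genes that met the rule in each library, with exact 95% binomial intervals, at full depth (filled circles) and after thinning each barcode to 2000 UMIs (open squares). Right, excitatory barcodes with both Nr4a2 and Nxph4 (coloured) beside the product of the single-gene shares (grey); the coloured bars reach 58 and 56 in COP1 KO and 69 and 48 in HET.

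The share of subplate-marker barcodes was not shown to differ between the genotypes. They were 1.16% (exact binomial 95% interval 0.886 to 1.48) and 1.26% (0.959 to 1.61) of the barcodes with 500 or more genes in COP1 KO. In HET they were 1.64% (1.29 to 2.05) and 1.17% (0.869 to 1.53). The means were 1.21% ± 0.0699 in COP1 KO and 1.40% ± 0.332 in HET (SD, n = 2 each), and the difference of -0.194 percentage points lay within the spread of the HET pair. An exact two-sided permutation test gave p = 0.667, where 2 libraries against 2 allow no p below 0.333. Thinned to 2000 UMIs, the shares were 0.234% and 0.252% in COP1 KO and 0.414% and 0.0686% in HET, so the difference became 0.0016 percentage points. Without HET replicate 1 the unthinned difference turned to 0.0403. In interneuron-type barcodes, 2 or more of the markers met in 2 barcodes of each library, a share of 0.217% and 0.201% in COP1 KO and 0.223% and 0.214% in HET. These intervals cover counting error only.

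Beyond the genes of the rule, the subplate-marker barcodes carried more of a list of 21 other genes known from the subplate than any neighbouring class of barcodes. The list was chosen with earlier results of these data known, so its level is no independent test of the label. The summed level of the list was 1097 and 1155 CPM in COP1 KO and 857 and 894 CPM in HET. In barcodes with Nr4a2 alone it was 524 and 490 CPM in COP1 KO and 489 and 454 CPM in HET, and in barcodes with Nxph4 alone 580 and 517 CPM in COP1 KO and 675 and 614 CPM in HET. In the 6994 excitatory barcodes with none of the markers it was 312 and 325 CPM in COP1 KO and 314 and 335 CPM in HET. The level thus stepped up from 0 to 1 to 2 markers in every library. Among the subplate-marker barcodes themselves, the median barcode showed 4 of the 21 genes. The number ran from 0 to 13, with 12 barcodes at 0 and 171 (69.2%) at 3 or more.

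**Figure D2:**
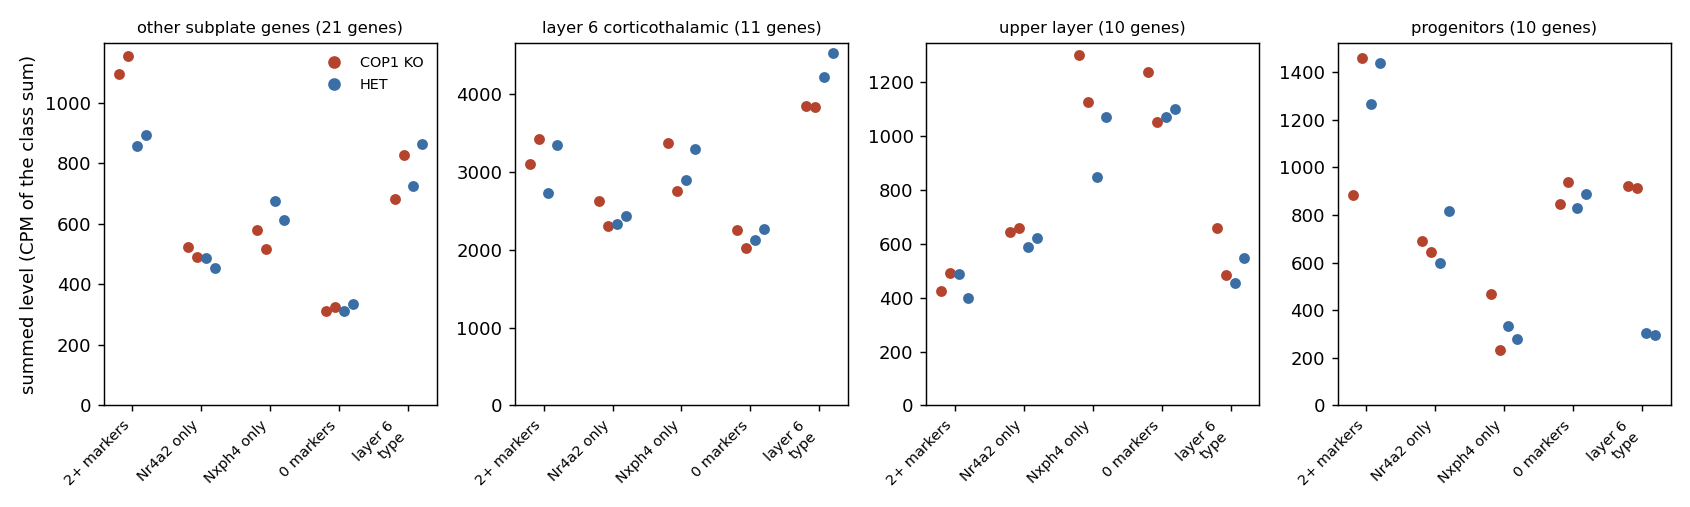
Summed level, in CPM, of 4 gene lists in barcodes with 2 or more markers, with Nr4a2 alone, with Nxph4 alone, with none of the markers, and in the layer 6 type class, 1 point a library. The subplate list stands at 857 to 1155 CPM in barcodes with 2 or more markers and at 312 to 335 CPM in those with none. The layer 6 type class lies between them in every library.

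The subplate-marker barcodes were then compared with the excitatory barcodes that had none of the markers, as 2 sums a library with the library as a block. Of 13051 genes tested, with the 10 genes of the rule set aside, 603 (4.62%) were higher and 465 (3.56%) lower in the subplate-marker barcodes, 8.18% in either direction (edgeR quasi-likelihood test, adjusted p under 0.05). Of the 4071 genes with a mean of 50 CPM or more, 632 (15.5%) passed. The list counts below are to be read beside these shares. The median barcode was also deeper, at 6525 and 6487.5 UMIs in COP1 KO and 7550 and 6989 in HET, against 4803 and 5566 (COP1 KO) and 5488 and 6033.5 (HET) in barcodes without the markers, and the part of this difference in the counts was not tested beyond the thinned values. With all barcodes thinned to 2000 UMIs 682 genes passed, against barcodes with exactly 1 marker 290, and without HET replicate 1 659. The thinned test kept the barcodes chosen at full depth, so the part of depth in their choice was not tested. DESeq2 placed 565 genes higher and 282 lower.

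Kcnab1, a beta subunit of voltage-gated potassium channels, had the largest difference among genes of at least 50 CPM. It stood at 77.7 and 83.3 CPM in COP1 KO and 59.8 and 48.2 CPM in HET subplate-marker barcodes, against 3.62 and 5.06 CPM (COP1 KO) and 3.64 and 4.16 CPM (HET) in barcodes without the markers. The groups did not overlap, and the log2 difference was 4.01 (SE 0.267, adjusted p = 1.12e-07). Nxph3, a relative of Nxph4, averaged 149 ± 49.9 CPM against 23.2 ± 2.63 CPM (SD, n = 4 libraries each), a log2 difference of 2.64 (SE 0.149). Hs3st4, a heparan sulfate sulfotransferase, averaged 170 ± 39 CPM against 27.4 ± 5.29 CPM, a log2 difference of 2.62 (SE 0.114).

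Of the list of other subplate genes, 17 of 21 passed the filter on low counts, and 15 of those were higher and none lower, with a median log2 difference of 1.61 beside -0.01 for all genes tested. The members included the dopamine receptor Drd1 (3.08), the lipid receptor Lpar1 (1.44), the GABA-A receptor subunit Gabra5 (1.41), the cofactor Zfpm2 (1.78), the actin bundler Pls3 (1.39), the growth factor binding protein Igfbp5 (1.30) and the adhesion molecules Cdh18 (2.73) and Cdh10 (1.13). The 2 that missed the threshold were Kcnt2, a potassium channel, at 1.61 (adjusted p = 0.085) and Inpp4b, a lipid phosphatase, at 1.26 (adjusted p = 0.343). Several calls in this list were lost when a library was left out: Tmem163, Lpar1 and Cdh18 lost the call without any 1 of HET replicate 1, COP1 KO replicate 1 or COP1 KO replicate 2, Cdh10 without either COP1 KO replicate, Igfbp5 without HET replicate 1 or COP1 KO replicate 2, and Sulf1 without HET replicate 1. Against barcodes with exactly 1 marker, Pls3 (adjusted p = 0.124), Abca8a (0.13), Serpini1 (0.512), Igfbp5 (0.146) and Tmem163 (0.14) did not pass, and the difference of Serpini1 was 0.16. Barcodes with Ctgf held 18 of the 36 Lpar1 UMIs, and without them Lpar1 differed by 0.66 (adjusted p = 0.396) and Igfbp5 by 0.93 (adjusted p = 0.107). Moxd1, Htr1d, Svil and Chrna5 did not pass the filter.

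**Figure D3:**
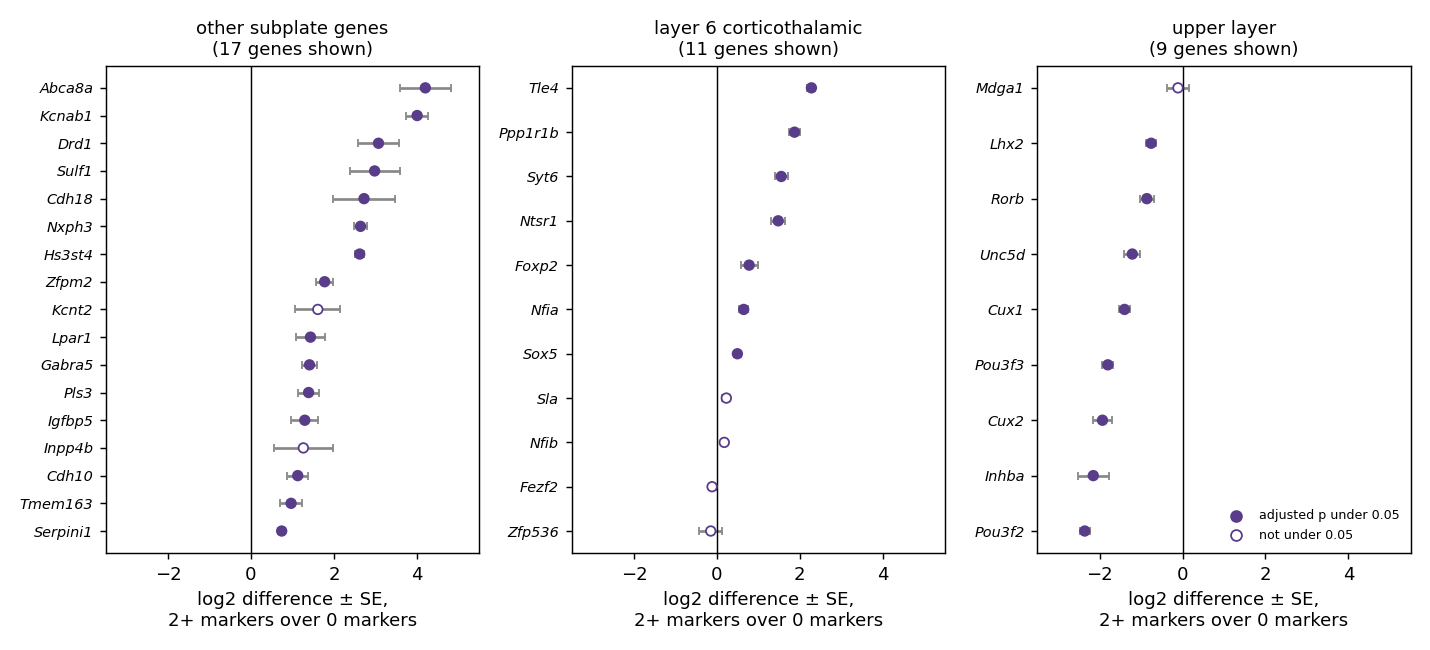
Log2 difference ± SE (edgeR) of subplate-marker barcodes over excitatory barcodes without the markers, for 3 gene lists. Points of the subplate list lie between 0.74 (Serpini1) and 4.21 (Abca8a), all to the right of 0, and 8 of the 9 upper-layer genes plotted lie to the left of 0 with an adjusted p under 0.05.

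Genes of layer 6 corticothalamic neurons, the neighbours of the subplate, were higher as well. Of 11 listed and tested genes, 7 were higher and none lower, with a median log2 difference of 0.65. Tle4, a transcriptional corepressor, stood at 377 and 333 CPM in COP1 KO and 184 and 239 CPM in HET subplate-marker barcodes, against 67.5 and 60.3 CPM (COP1 KO) and 45.2 and 55 CPM (HET) in barcodes without the markers, a log2 difference of 2.28 (SE 0.0971). Ppp1r1b, the phosphatase inhibitor DARPP-32, differed by 1.88, Syt6 by 1.56, the neurotensin receptor Ntsr1 by 1.48, Foxp2 by 0.78, Nfia by 0.65 and Sox5 by 0.50. Fezf2, a selector of deep-layer projection neurons, differed by -0.11 (adjusted p = 0.507).

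Upper-layer genes ran the other way. Of 10 listed, 9 were lower and none higher, with a median of -1.38. Pou3f2, a POU factor of upper-layer neurons, stood at 35.5 and 36 CPM in COP1 KO and 46.4 and 43.9 CPM in HET subplate-marker barcodes, against 210 and 194 CPM (COP1 KO) and 214 and 221 CPM (HET) in barcodes without the markers. Its log2 difference was -2.36 (SE 0.115), with no overlap. Cux2 (-1.93), Pou3f3 (-1.80) and Cux1 (-1.40) were lower too. Against barcodes with exactly 1 marker Cux2 differed by -0.88 and did not pass (adjusted p = 0.167). Outside the list, Pou3f1 (-2.07), Bhlhe22 (-1.84) and the synaptotagmin Syt4 (-2.25) were among the largest differences.

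Receptor and synapse genes changed in part. Among glutamate receptor genes 4 of 15 were higher, Grm3 (2.30), Grik3 (1.67), Gria3 (0.92) and Grm5 (0.56), and Gria2 was lower (-0.47). Among GABA-A receptor genes 4 of 11 were higher, Gabra5 together with Gabrb1 (1.51), Gabrb2 (0.73) and Gabrd (2.56), and Gabra2 was lower (-0.95). Of 17 vesicle release genes, Snap25 (0.80), Syt1 (0.56), the vesicle protein Sv2b (2.30) and the glutamate transporter Slc17a7 (1.41) were higher and Syt4 was lower. The list medians were 0.18, 0.64 and 0.21, beside -0.01 for all genes. Of all genes tested 8.18% passed in either direction, and of those with a mean of 50 CPM or more 15.5% did.

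More axon guidance genes were lower than higher. Of 26 tested, 11 were lower, 2 higher and 13 passed in neither direction, with a median of -0.49. Of all genes tested, 3.56% were lower and 4.62% higher, and 15.5% of those at 50 CPM or more passed in either direction. The lower ones included the semaphorin coreceptor Nrp1 (-1.17), the Slit receptors Robo1 (-1.24) and Robo2 (-0.88), the netrin receptor Dcc (-0.78) and Plxna4 (-1.69). The higher ones were the ephrin receptor Epha7 (1.23), at 189 and 149 CPM in COP1 KO and 135 and 110 CPM in HET against 55.9 to 66.5 CPM without the markers, and Plxna1 (0.88). Of 11 tested genes of the extracellular matrix, 6 were higher, among them the heparan sulfatases Sulf2 (1.69) and Sulf1 (2.98) and the proteoglycan Vcan (0.70).

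Immediate early genes, which neurons switch on with activity and cells with dissociation, were higher in 9 of 19 cases and lower in 1, with a median of 0.65. Of all genes tested 8.18% passed in either direction, and of those with a mean of 50 CPM or more 15.5% did. Npas4 stood at 133 and 196 CPM in COP1 KO and 135 and 149 CPM in HET subplate-marker barcodes, against 46.8 and 57.9 CPM (COP1 KO) and 61.7 and 59.3 CPM (HET), a log2 difference of 1.42 (SE 0.117). Nr4a1 (1.27) and Nr4a3 (0.87), the relatives of Nr4a2 that respond in the same way, were both higher, and so were Junb (1.60), Egr1 (0.82) and Fos (0.65). Nr4a2 is itself an activity-responsive gene and was required in nearly every subplate-marker barcode. Its part in this result was not tested.

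Markers of several other cell types were present, some of them in 1 or 2 barcodes of a library. The interneuron genes Gad1 (-2.40), Gad2 and Sst (-1.08) were lower, none of 8 Cajal-Retzius genes passed in either direction, and of the claustrum list Nr2f2 was lower (-1.01). Vessel and fibroblast genes summed to 32.3 and 56.9 CPM in COP1 KO and to 27.4 and 1409 CPM in HET. The last value came with 284 UMIs of the endothelial claudin Cldn5, of which 191 lay in 1 barcode and 91 in another. Microglia genes summed to 465 and 15.9 CPM in COP1 KO and to 35.0 and 15.5 CPM in HET, and 1 COP1 KO barcode held 152 of 153 UMIs of Pf4. Progenitor genes summed to 886 and 1460 CPM in COP1 KO and to 1265 and 1440 CPM in HET, against 847 and 937 CPM (COP1 KO) and 829 and 888 CPM (HET) without the markers, so they were higher with the markers in every library. Sox2, Mki67 or Top2a was present in 27 of the 247 barcodes.

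Layer 6 type barcodes were the closest comparison. These 336 barcodes had Tle4 and Foxp2, none of the 4 markers, and otherwise met the rule, so these genes are no finding here. Of 7272 genes tested, 124 (1.71%) were higher and 99 (1.36%) lower in the subplate-marker barcodes, 3.07% in either direction. DESeq2 called 66. Leaving out a library gave 148 (COP1 KO replicate 1), 122 (HET replicate 1) and 115 (HET replicate 2). The summed level of the 21 subplate genes was 683 and 827 CPM in COP1 KO and 726 and 863 CPM in HET layer 6 type barcodes, in each library below the value of the subplate-marker barcodes given above and above that of barcodes without the markers.

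Of the subplate list, 9 genes were tested here, and Kcnab1 and Cdh10 were higher. Kcnab1 stood at 80.2 and 87.7 CPM in COP1 KO and 64 and 51.5 CPM in HET subplate-marker barcodes, against 4.41 and 10.5 CPM (COP1 KO) and 7.76 and 15.9 CPM (HET) in layer 6 type barcodes, a log2 difference of 2.79 (SE 0.314). Cdh10 differed by 1.99 (adjusted p = 0.00287), and by 1.72 (adjusted p = 0.06) without COP1 KO replicate 2. Hs3st4 averaged 179 ± 38.5 CPM against 190 ± 42.3 CPM, a log2 difference of -0.09 that changed sign under other settings, and Nxph3 differed by 0.38 (adjusted p = 0.264). These last values lay within the spread of the libraries.

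Rprml led the genes that were higher than in layer 6 type barcodes, at 3.12 (SE 0.291). The chaperone Cryab followed at 2.99, Syndig1l, a relative of a synapse-inducing membrane protein, at 2.85, and the neuropeptide precursor Cck at 1.96 (SE 0.177). Cck stood at 206 and 308 CPM in COP1 KO and 189 and 190 CPM in HET subplate-marker barcodes, against 81.7 and 58.9 CPM (COP1 KO) and 58.2 and 31.8 CPM (HET). The groups did not overlap. Sla (-1.05) and the layer factors Sox5 (-0.75), Fezf2 (-0.69) and Rorb (-2.02) were lower than in layer 6 type barcodes. Every layer 6 type barcode was required to hold Tle4 and Foxp2, while 174 of the 247 subplate-marker barcodes held Tle4. The part of this choice in genes that accompany Tle4 or Foxp2 was not tested. The layer 6 type class also held genes of striatal and inhibitory neurons, with Isl1 at 65.6 ± 15.2 CPM against 3.36 ± 2.8 CPM in subplate-marker barcodes (SD, n = 4 libraries each), and with Ebf1, Gad1 and Gad2 at log2 differences of -2.92, -3.91 and -3.34 in the subplate-marker barcodes. The part of such barcodes in the comparison was not tested.

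The subplate-marker barcodes were not all alike. The 17 that held Ctgf, 3 to 7 in each library, were set against the 230 without it, again as 2 sums a library. The median barcode was deeper with Ctgf, at 10345 UMIs against 6732 without. The part of depth in this split was not tested beyond the thinned count given below. Of 4609 genes tested, 182 (3.95%) were higher and 94 (2.04%) lower with Ctgf, 5.99% in either direction. The total fell to 172 with HET replicate 2 left out, and to 136 with COP1 KO replicate 1 left out. The Ctgf sums held 29639 and 47463 counts in COP1 KO and 75337 and 51363 counts in HET.

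Genes of dividing neural progenitors were higher in the Ctgf barcodes. All 8 tested genes of a progenitor list were higher, with a median log2 difference of 4.39 beside -0.05 for all genes. Fabp7, a fatty acid binding protein of radial glia, stood at 4409 and 9593 CPM in COP1 KO and 5671 and 4679 CPM in HET barcodes with Ctgf, against 111 and 56.9 CPM (COP1 KO) and 112 and 62.9 CPM (HET) without it. The log2 difference was 6.10 (SE 0.368, adjusted p = 1.68e-07). Vim (4.24), Sox2 (4.75), Top2a (5.20) and the cyclin Ccna2 (5.43) were higher too, as was the matricellular gene Cyr61 (3.84), a relative of Ctgf. Sox2, Mki67 or Top2a was present in 9 of the 17 barcodes with Ctgf and in 18 of the 230 without.

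Deep-layer and synapse genes were lower in the Ctgf barcodes. The log2 difference was -3.17 for Hs3st4, -2.59 for Sox5, -2.26 for Crym and -1.46 for Pcp4, and Snap25 stood at 75.4 and 154 CPM in COP1 KO and 157 and 0 CPM in HET with Ctgf, against 464 and 536 CPM (COP1 KO) and 306 and 374 CPM (HET) without it. Prkcz, a protein kinase C, had 0 counts in all 4 Ctgf sums and 60.8 and 53.9 CPM in COP1 KO and 53.8 and 80.8 CPM in HET without Ctgf. It lost the call whichever library was left out. The leading genes of the summed Ctgf barcodes were thus those of progenitors, which goes against the label, but the 17 were not uniform. At least 3 Fabp7 UMIs were found in 9 of them and Tle4 in 9, 1 held 191 Cldn5 UMIs, and of those without Sox2, Mki67 or Top2a the 4 with most subplate genes showed 7, 9, 7 and 9 of the 21.

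A further division, over all subplate-marker barcodes, is given as a description. Tle4 was present in 174 of the 247 and absent from 73. Hs3st4 was detected in 74.1% of those with Tle4 and 17.8% of those without. For Neurod1, a transcription factor of newly formed neurons, these shares were 8.62% and 46.6%. For Zbtb20, a transcriptional repressor that acts in cortical and hippocampal patterning, they were 17.2% and 49.3%. The median depth was 6868.5 UMIs with Tle4 and 7041 without. Barcodes with Tle4 made up 73.8% and 76.7% of the subplate-marker barcodes in COP1 KO and 62.7% and 70.6% in HET.

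COP1 KO was then compared with HET within the subplate-marker barcodes, as 2 sums against 2. Of 7285 genes tested, none was higher and 3 (0.0412%) were lower in COP1 KO with edgeR, with 458 at an unadjusted p under 0.05. DESeq2 called none, with 95 at an unadjusted p under 0.05. The 3 were Nrp1, Hes1 and Zbtb20. None passed with library totals in place of TMM scaling, nor after thinning to 2000 UMIs. The thinned sums held the barcodes chosen at full depth, and 2842 genes were tested in them. Without COP1 KO replicate 1 none passed, and without COP1 KO replicate 2 1 other gene did, while 161 passed without HET replicate 1 and 109 without HET replicate 2. Each of these fits has 1 library on one side, which is assumed to vary like the pair on the other. Rfwd2, the targeted gene, stood at 34.8 and 19.1 CPM in COP1 KO and 41.9 and 37.7 CPM in HET, and where the deletion lies relative to the counted 3′ end is not given here, so this does not check the labels.

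Nrp1 (chromosome 8, 128358591 to 128505476, GRCm38), the neuropilin receptor for semaphorins and vascular growth factor, had 118 and 107 CPM in COP1 KO and 306 and 259 CPM in HET. The groups did not overlap. Its log2 change was -1.33 (SE 0.183, adjusted p = 0.0394), and over the alternatives it ran from -1.50 to -1.19. Nrp1 was detected in 18 of 61 and 11 of 60 COP1 KO barcodes, and in 31 of 75 and 19 of 51 HET barcodes. The highest single barcode held 10 of 51 and 11 of 45 Nrp1 UMIs in COP1 KO, and 26 of 190 and 23 of 110 in HET. A further barcode of HET replicate 2 held 22. How the difference was shared among barcodes was not tested.

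Zbtb20 (chromosome 16, 42875689 to 43634392) had 74.2 and 88.2 CPM in COP1 KO and 266 and 196 CPM in HET. The groups did not overlap, and the log2 change was -1.52 (SE 0.224, adjusted p = 0.049). Thinning to 2000 UMIs gave -0.69 (adjusted p = 0.868), and leaving out barcodes over the Scrublet doublet score gave -1.56 (adjusted p = 0.0755). It was detected in 16.4% and 18.3% of COP1 KO barcodes, against 44.0% and 23.5% of HET barcodes, so HET replicate 1 stood above the other 3 libraries by detection. The highest single barcode held 9 of 32 and 10 of 37 Zbtb20 UMIs in COP1 KO, and 34 of 165 and 22 of 83 in HET. Further barcodes of HET replicate 2 held 16, 12 and 10. How the Zbtb20 difference was shared among barcodes was not tested.

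Hes1 (chromosome 16, 30065357 to 30067796), a Notch effector of progenitors, had 81.2 and 71.5 CPM in COP1 KO and 201 and 248 CPM in HET. The log2 change was -1.54 (SE 0.213, adjusted p = 0.0394). These levels came from 14 barcodes in all, 3 and 3 in COP1 KO and 4 and 4 in HET. Barcodes with Ctgf held 175 of the 295 UMIs (59.3%), and the Hes1 UMIs of HET barcodes without Ctgf lay in a single barcode of each library, with 61 and 51 UMIs. The HET replicate 1 barcode also held 7786 UMIs of Ttr, a choroid plexus gene, and the HET replicate 2 barcode 91 UMIs of Cldn5. With the Ctgf barcodes left out the change was -3.54 (adjusted p = 0.00338), which rests on these HET barcodes, and with barcodes carrying Sox2, Mki67 or Top2a left out the gene did not pass the filter on low counts.

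The remaining genes with the smallest p did not pass. Rspo3, a secreted amplifier of Wnt signalling, had 197 and 255 CPM in COP1 KO and 99.9 and 61.3 CPM in HET, a log2 change of 1.44 (SE 0.244, adjusted p = 0.131). A single Ctgf barcode held 59 of the 107 Rspo3 UMIs of COP1 KO replicate 2. Neurod1 had 32.5 and 92.9 CPM in COP1 KO and 199.8 and 238 CPM in HET (log2 change -1.80, adjusted p = 0.189). The barcodes highest in Zbtb20 in each HET library also held 41 of 124 and 26 of 101 Neurod1 UMIs. Tle4 had 394 and 353 CPM in COP1 KO and 198 and 257 CPM in HET (log2 change 0.73, adjusted p = 0.391). H2afv, Pgrmc1, Camk2n2 and 1700086L19Rik, with changes of -0.73, 0.67, 1.44 and 1.28, had adjusted p of 0.24 to 0.391.

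**Figure D4:**
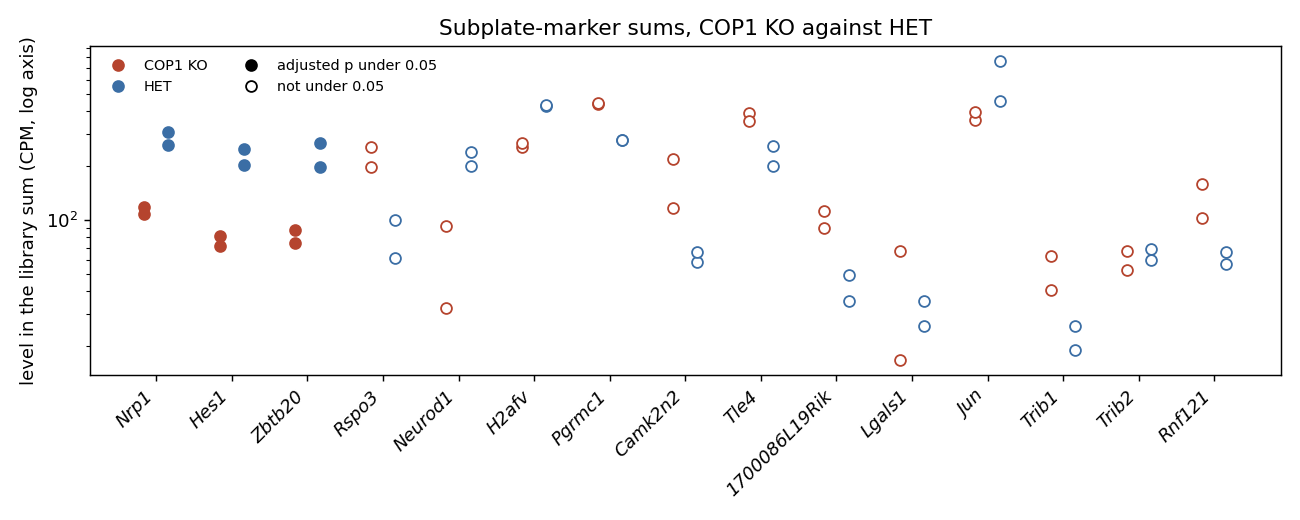
Level of the named genes in the summed subplate-marker barcodes, in CPM on a log axis, 1 point a library, COP1 KO left of HET. Filled points mark Nrp1, Hes1 and Zbtb20, whose adjusted p lay under 0.05; open points mark genes that did not pass.

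**Figure D5:**
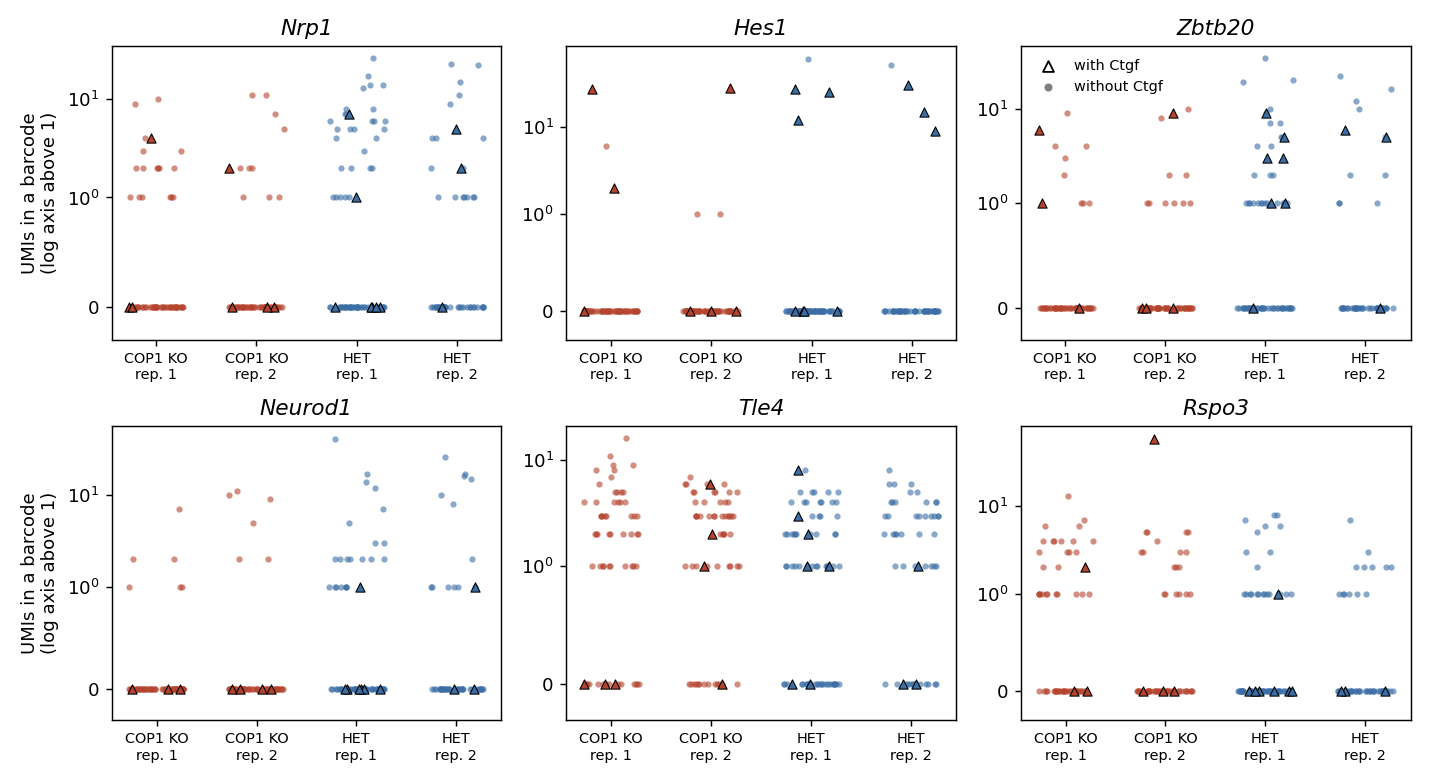
UMIs of 6 genes in each subplate-marker barcode, by library, on an axis that is linear to 1 and logarithmic above, with triangles for the 17 barcodes that held Ctgf. Nrp1 was detected in 79 barcodes, Hes1 lies in 14, most of its UMIs in triangles, and 1 triangle holds 59 Rspo3 UMIs.

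Genes tied to COP1, and a few others named whatever they showed, had no call in the subplate-marker sums. Jun, whose product is a COP1 substrate, had 357 and 396 CPM in COP1 KO and 459 and 764 CPM in HET (log2 change -0.69, adjusted p = 0.562). Trib1, an adaptor of COP1, changed by 1.17 (adjusted p = 0.595), Rnf121 by 1.07 (adjusted p = 0.435) and Trib2 by -0.08, and Lgals1 had 67.2 and 16.7 CPM in COP1 KO and 25.8 and 35.4 CPM in HET, so its groups overlapped. Without the filter on low counts, where 238 genes passed, Jun and Rnf121 were among them (edgeR adjusted p = 0.00257 and 0.00438). Etv1, Etv4, Etv5, Olig1, Olig2 and Gfap did not pass that filter. Of the 11 tested subplate genes, none passed in either direction and 10 had a positive change, with a median of 0.35 beside -0.00371 for all genes, and the layer 6 list had a median of 0.12. Of all genes tested, 49.5% had a positive change. Whether the listed genes vary together among barcodes was not tested, so their signs are not separate results. Groups did not overlap for 2546 of the 7285 genes (34.9%), called or not.

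Whether the change differed from that in excitatory barcodes without the markers was asked of an interaction between class and genotype, fitted with a block for each library. Of 14403 genes, 4 (0.0278%) passed with edgeR, all with a more negative change in the subplate-marker barcodes, and DESeq2 called 1. Leaving out HET replicate 1, HET replicate 2, COP1 KO replicate 1 or COP1 KO replicate 2 gave 150, 96, 46 and 75. Nrp1 had 401 and 361 CPM in COP1 KO and 449 and 448 CPM in HET in barcodes without the markers, and its difference of changes was -1.07 (SE 0.172, adjusted p = 0.0101). Zbtb20 had 189 and 176 CPM in COP1 KO and 185 and 176 CPM in HET there, and differed by -1.51 (SE 0.204, adjusted p = 0.0015). Neurod1 had 231 and 194 CPM in COP1 KO and 165 and 173 CPM in HET there, and differed by -2.10 (SE 0.281, adjusted p = 0.0015). Nrp1 and Neurod1 lost the call with DESeq2 (adjusted p = 0.17 and 0.99986), Nrp1 and Zbtb20 after thinning (0.909 and 1), and Neurod1 without barcodes over the Scrublet score (0.0652). In barcodes without the markers both COP1 KO values of Neurod1 thus lay above both HET values, the opposite order to that in the subplate-marker barcodes.

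The shares of barcodes with Neurod1 and without Tle4 are given beside these changes as a description. Both genes were among those with the smallest genotype p, so these shares restate their levels and are no separate measure of make-up. Barcodes with Neurod1 made up 9.84% and 10.0% in COP1 KO and 30.7% and 27.5% in HET. Those without Tle4 made up a smaller share of each COP1 KO library than of the HET ones. They carried 183 of 278 Neurod1 UMIs and 176 of 317 Zbtb20 UMIs. Barcodes with Sox2, Mki67 or Top2a numbered 6 and 4 in COP1 KO and 14 and 3 in HET. Leaving these out was decided after the data were seen. In that setting Nrp1 changed by -1.50 (edgeR adjusted p = 0.00378), Zbtb20 by -1.81 (adjusted p = 0.00575) and Neurod1 by -1.76 (adjusted p = 0.0326). None of them passed with library totals, with DESeq2 or after thinning. The part of the Tle4-free barcodes in the genotype values was not tested.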

How the data were processed

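Single-cell 3′ RNA libraries of 4 samples were used, 2 of each genotype. The deposited values are raw counts per gene and barcode, not normalized. Per the submitters' processing notes the aligner was GSNAP and the genome build GRCm38. How reads were counted, the annotation and barcode calling were not given in the sources used here. Rows that carried only a number (3065, with 1.69% of the counts) are not named, and 34 copies of rows with identical counts were removed. Coordinates are RefSeq's for GRCm38.

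Raw counts were summed per library and class and tested by the quasi-likelihood method of edgeR 4.0.16 under R 4.3.3, after filterByExpr and TMM scaling. P-values were adjusted over all genes by Benjamini-Hochberg (threshold 0.05). SE was taken as the size of the log2 change divided by the root of its F value. CPM of genes are TMM-scaled within each comparison, so a gene's CPM differs slightly between comparisons, and CPM of lists are of the class total. Alternatives were DESeq2 1.42.0, library totals, no filter, thinning, other rules and leaving out each library. Barcodes were thinned with numpy 2.4.6, and exact tests used scipy 1.17.1. For shares and co-detection the rule was applied again after thinning, while for gene tests the barcodes stayed those chosen at full depth. No doublets were removed: Scrublet (scanpy 1.11.5) marked 13 barcodes by itself, too few to be credible, so a score over 0.25 (229 barcodes, 6 of them subplate-marker barcodes) served as an alternative. The tests were checked on simulated data, with changes set in genes of 50 CPM or more. Counts were drawn from a negative binomial at the common dispersion of each comparison, with the same mean profile for every sum. UMIs concentrated in single barcodes were not simulated, so the following values hold for that setting only. The genotype test recovered 48.0% of log2 changes of 1 and 96.0% of those of 2, with 7 false calls. At a log2 change of 1 the class-by-genotype test recovered 54.0% and the Ctgf split 11.1%. The comparisons with other excitatory and layer 6 type barcodes recovered 100% and 94.0%.

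The labels give no litter, batch or replicate number, and the replicates are numbered in accession order. The members and gene lists were chosen with earlier results of these data known. The rule for named genes took the genes of the rule and Rfwd2. For genotype it took the genes past the threshold or the smallest p at 50 CPM or more. Genes tied to COP1 and a few others were named for genotype whatever they showed. Elsewhere it took the largest differences in each direction at 50 CPM or more. Many of these are given as counts only, and 1 gene of a list is counted but not reported here. Further genes were named from the lists after their values were seen.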

Additional observations from a re-analysis of the deposited data

Results flagged for a closer look

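In 4 genes the change between COP1 KO and HET differed between subplate-marker barcodes and excitatory barcodes without the markers, by edgeR's test of the class-by-genotype term. Neurod1 differed by -2.10 (adjusted p = 0.0015), from -3.17 to -1.40 over the alternatives, and did not pass with DESeq2 (adjusted p = 0.99986) or without barcodes over the Scrublet score (0.0652). Zbtb20 differed by -1.51 (adjusted p = 0.0015), from -1.80 to -0.72, and did not pass after thinning. A single barcode of HET replicate 1 held 34 of its 165 Zbtb20 UMIs and 41 of its 124 Neurod1 UMIs. Nrp1 differed by -1.07 (adjusted p = 0.0101), from -1.24 to -0.92, and did not pass with DESeq2 (adjusted p = 0.17) or after thinning (0.909).

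Ttr, the thyroid hormone carrier of the choroid plexus, differed by -9.69 (adjusted p = 0.00444). A single barcode of HET replicate 1 held 7786 of its 7809 Ttr UMIs, and the other libraries had 14 and 14 UMIs in COP1 KO and 3 in HET replicate 2. In barcodes without the markers Ttr had 150 and 6612 UMIs in COP1 KO and 360 and 137 in HET, so COP1 KO replicate 2 stood apart there. Without HET replicate 1 the difference was -2.27 (adjusted p = 0.555), and the call was also lost with DESeq2, without barcodes over the Scrublet score and without barcodes carrying Sox2, Mki67 or Top2a.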

How the results depend on the processing

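No paired analysis was possible because the labels give the samples no replicate numbers. The genotype test was not run for 3 or more markers or without Nr4a2 in the rule, which left 1 to 3 barcodes a library. The cause of the following moves was not tested. The count of genes with a genotype change, 3, became 0 with library totals, 238 without the filter on low counts, 0 with DESeq2, 0 after thinning to 2000 UMIs, and 0 to 161 with 1 library left out. The count for the class-by-genotype term, 4, became 92 without the filter, 1 with DESeq2, 2 without barcodes over the Scrublet score, 46 to 150 with 1 library left out and 37 without Ctgf barcodes (leaving out Ctgf or progenitor-gene barcodes was decided after seeing the data). The 1068 genes that differed from other excitatory barcodes became 1609 without the filter, 682 after thinning, 290 against barcodes with exactly 1 marker, and 659 to 939 with 1 library left out. The 223 that differed from layer 6 type barcodes became 483 without the filter, 66 with DESeq2, 85 after thinning and 115 to 169 with 1 library left out. The 276 of the Ctgf split became 788, 21 (thinned) and 136 to 280 (1 library left out). The share difference became 0.0016 after thinning and ran from -0.429 to 0.0403 with 1 library left out. The genotype change of Trib2 ran from -0.269 to 0.0907 and that of Lgals1 from -0.84 to 1.16 with 1 library left out, and Trib2 stood at 0.15 without Ctgf barcodes. Hs3st4 changed sign against layer 6 type barcodes after thinning (0.0803), without Ctgf barcodes (0.0563) and without barcodes carrying Sox2, Mki67 or Top2a (0.0472). With 51 to 75 barcodes a library, genes of low level could not be compared.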
